A study of Gallus gallus with 8 samples.

Results

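Yolk sac endoderm of chicken embryos at embryonic day 3 was compared with that at embryonic day 1. The comparison used 4 of the 8 Affymetrix Chicken Genome Arrays of the series, the 2 labelled day 3 and the 2 labelled day 1, chosen by their titles. The arrays of days 2 and 4 entered as the neighbours in time and as a source of the estimate of spread. The labels give tissue and day for each sample and name no strain, treatment, allele or transgene. Fertilized eggs were incubated at 38 °C, yolk sac tissue was dissected, and dispase was used to part the endoderm from the mesoderm. Tissue taken every 4 h was pooled over the day for each sample, and each day had 2 RNA samples, every one on its own array. The p-values below therefore measure the spread between such pools, not between embryos.

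The yolk sac endoderm is an extraembryonic epithelium that spreads over the yolk together with mesoderm, which forms blood and vessels next to it. Its cells take up yolk lipoproteins and proteins by endocytosis, digest them in lysosomes, repackage the lipid into new lipoproteins and secrete plasma proteins into the embryonic circulation, roles later held by liver and intestine. On the first day of incubation the embryo is at the stage of the primitive streak, and the tissue at the edge of the blastoderm is still expanding.

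Array values are MAS5 signals in arbitrary units, on a linear scale and related to brightness, so levels of different genes are not set against each other. The trimmed mean signal was 106 and 169.8 on the day 1 arrays and 90.9 and 91.9 on the day 3 arrays, and day 1 replicate 2 was the brightest array of all. Changes are therefore given as log2(signal + 16) after quantile normalization, which gives all arrays the same distribution, and the counts for the gene lists below are given on the signals as deposited too. A log2 change of 1 is a 2-fold difference, the added 16 shrinks changes of dim probe sets, and ± marks the standard error of a limma fit over all 8 arrays. The 2 arrays of a day correlated at 0.977 on day 1 and 0.964 on day 3, and arrays of day 1 with those of day 3 at 0.828 to 0.867. The actin 3' to 5' signal ratio, an index of RNA or labelling quality, was 2.91 and 1.50 on day 1 and 2.63 and 3.36 on day 3, ranges that overlap. Among genes that define this tissue, the retinol and thyroid hormone partner TTR had signals of 8945 and 9964 on day 1 against 7407 and 7984 on day 3, and the lipoprotein scaffold APOB had 7252 and 7548 on day 1 against 10043 and 10580 on day 3. The endocytic receptor subunit AMN had 264 and 165 on day 1 against 1442 and 1427 on day 3. These TTR and APOB values are from the brightest of several probe sets of each gene, which were bright on both days, and AMN was much dimmer on day 1. Over all 10553 genes tested, 14.5% rose and 18.1% fell from day 1 to day 3 at a limma adjusted p under 0.05 (6.7% and 28.1% as deposited). Of 11 markers of yolk sac endoderm tested, 5 rose and 1, SOX17, fell (2 and 1 as deposited); without an array of day 1 or day 3 the rises numbered 3 without day 1 replicate 1, 2 without day 1 replicate 2, 2 without day 3 replicate 1 and 2 without day 3 replicate 2.

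Across the whole array the tissue of day 3 differed widely from that of day 1, and both directions were well filled. Many plasma proteins, lipoprotein genes, absorptive transporters and enzymes of amino acid breakdown and glucose synthesis were higher on day 3. Many regulators of the primitive streak, some muscle genes of the heart type, and much of the machinery of cell division, ribosome assembly and splicing were lower on day 3. Of 23063 probe sets tested, 2783 were higher on day 3 (12.1%) and 3168 lower (13.7%) at a limma adjusted p under 0.05. On the deposited signals the counts were 1219 higher (5.29%) and 5261 lower (22.8%), so rises made up 46.8% of the calls on the first scale and 18.8% on the second. No probe set was called in opposite directions by the 2 scales, and 1205 rises and 3124 falls were called by both. Leaving out 1 array gave 1474 rises and 1450 falls without day 1 replicate 1, 1209 and 1046 without day 1 replicate 2, 1637 and 1700 without day 3 replicate 1, and 1326 and 1130 without day 3 replicate 2. The samples were bulk tissue, in which fewer cells of a type and less RNA per cell cannot be told apart.

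**Figure D1:**
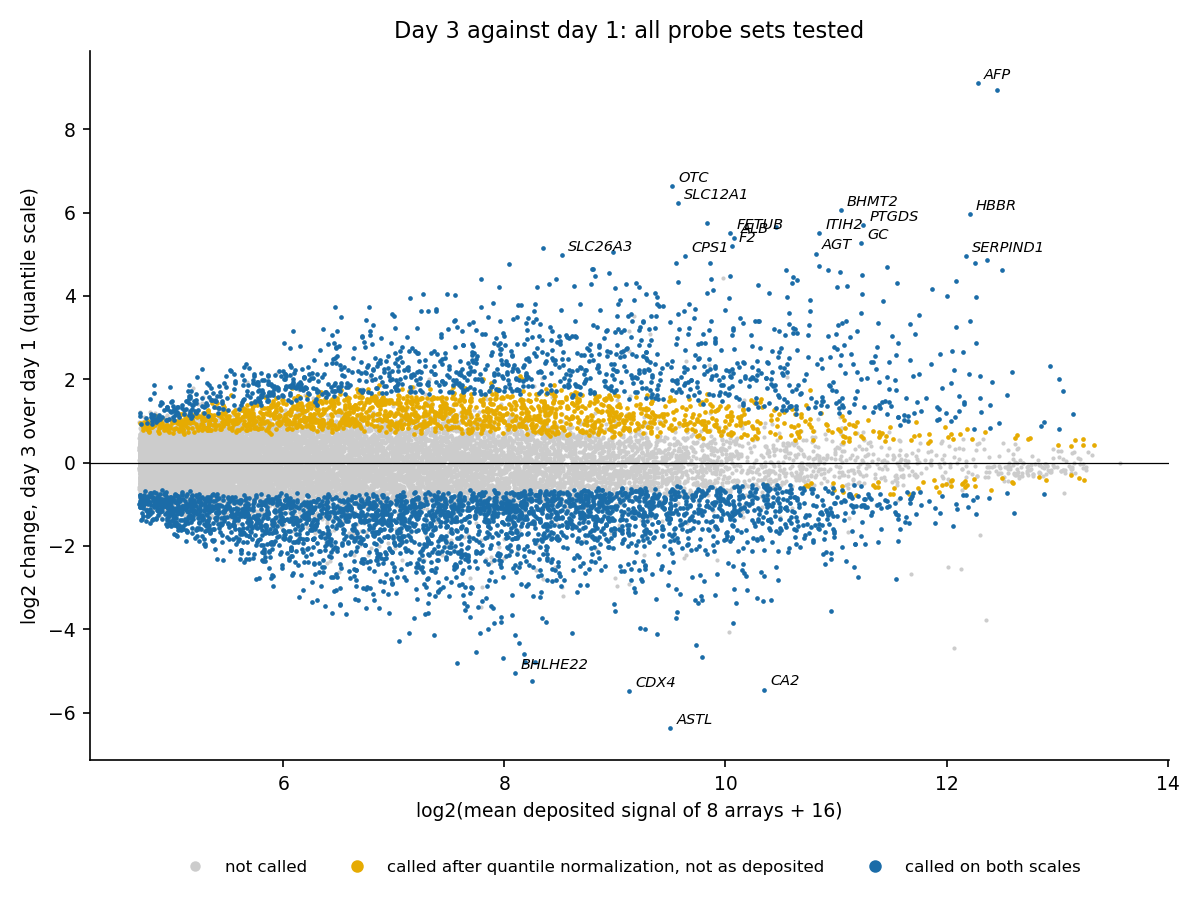
Each point is 1 of 23063 probe sets, with log2 of its mean deposited signal plus 16 on the horizontal axis and its log2 change from day 1 to day 3 after quantile normalization on the vertical axis. Blue points were called on both scales, gold points after quantile normalization and not as deposited, and the gold points lie mostly among rises of moderate size.

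After quantile normalization a log2 change of at least 2 was seen in 663 of the called rises and 499 of the called falls, with medians of 1.38 and 1.25 in size. As deposited it was seen in 372 rises and 1172 falls, with medians of 1.59 and 1.50, so which direction held more large changes turned with the scale. Called falls carried a gene symbol more often, 86.6% against 79.1% of called rises and 78.0% of all probe sets tested. The median change over all probe sets was -0.01 after quantile normalization and -0.43 as deposited. With each array shifted to a common median it was -0.17, and 2173 probe sets were higher and 4577 lower. Scaling by the spiked hybridization controls gave a median of -0.25, with 1312 higher and 3007 lower.

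**Figure D2:**
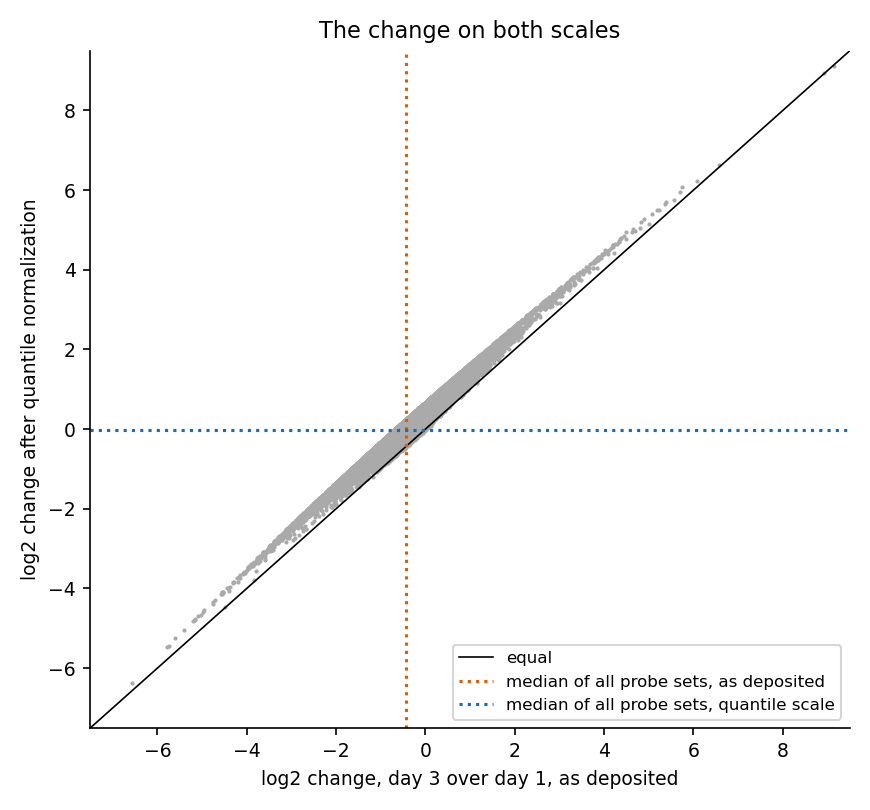
The log2 change of every probe set tested is plotted as deposited on the horizontal axis and after quantile normalization on the vertical axis, with the line of equality and dotted lines at the medians of -0.43 and -0.01. Nearly the whole cloud lies above the line, and large changes in either direction kept their sign.

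The 15 largest rises among genes called and separated on both scales were AFP, OTC, SLC12A1, BHMT2, HBBR, PTGDS, FETUB, ITIH2, ALB, GC, F2, AGT, SLC26A3, CPS1 and SERPIND1. Of these, 8 encode secreted plasma proteins made by the liver in later life. AFP, the alpha-fetoprotein carrier of fetal plasma, had deposited signals of 1.00 and 0.169 on day 1 against 9145 and 9497 on day 3, a log2 change of 9.11 ± 0.26 (adjusted p = 1.20e-06). Its day 1 signals were below both the filter level of 9.96 and the added 16, as were those of OTC and SLC12A1, so the sizes of these changes depend on that constant and their order is not exact. Its relative ALB, serum albumin, gave 18.4 and 34.1 on day 1 against 2153 and 874 on day 3, and GC, which carries vitamin D, gave 91.6 and 119 on day 1 against 3973 and 3204 on day 3. All 3 relatives were thus low on both day 1 arrays and high on both day 3 arrays. FETUB, a fetuin that inhibits proteases, had 67.5 and 36.9 on day 1 against 2362 and 2563 on day 3. ITIH2, a heavy chain of the inter-alpha-trypsin inhibitors, gave 82.4 and 81.8 on day 1 against 3433 and 3624 on day 3, a log2 change of 5.50 ± 0.28 (adjusted p = 3.66e-05). F2, prothrombin, read 46.0 and 73.2 on day 1 against 1846 and 2379 on day 3. AGT, the angiotensin precursor, had 123 and 120.1 on day 1 against 3596 and 3247 on day 3. SERPIND1, the thrombin inhibitor heparin cofactor II, was already well above the floor with 283 and 347 on day 1 against 6998 and 7706 on day 3, a log2 change of 4.95 ± 0.20 (adjusted p = 1.92e-05).

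The other large rises were enzymes, ion transporters and a globin. OTC, the mitochondrial enzyme that makes citrulline, had signals of 1.01 and 1.31 on day 1 against 2004 and 1298 on day 3. CPS1, which makes its substrate carbamoyl phosphate, had 33.6 and 29.1 on day 1 against 1193 and 1105 on day 3. BHMT2, of the family that remethylates homocysteine with betaine-type donors, gave 60.3 and 63.9 on day 1 against 5034 and 3467 on day 3. These 3 enzymes act on amino acid nitrogen or methyl groups in mitochondria or cytosol of liver cells. SLC12A1, the sodium, potassium and chloride cotransporter best known from kidney, read 5.54 and 5.88 on day 1 against 989 and 2163 on day 3. SLC26A3, a chloride and bicarbonate exchanger of the gut, read 8.46 and 14.5 on day 1 against 711 and 676 on day 3. PTGDS, a lipocalin with prostaglandin D synthase activity, gave 52.0 and 90.6 on day 1 against 4315 and 2891 on day 3. HBBR, an embryonic beta-type globin of red cells, had 327 and 29.7 on day 1 against 6849 and 6131 on day 3, with the 2 day 1 arrays far apart. All 15 calls were kept whichever single array was omitted; that they were called on both scales, with the days apart, was part of the rule that named them. For SLC12A1, 4 probe sets rose by 2.30 to 6.22 on the log2 scale, so the size depends on the probe set chosen. For CPS1, 3 of 4 probe sets were called, and the fourth had a limma adjusted p of 0.0532. The brightest rose by 4.96 and the others, all dim, by 1.05 to 1.44, so its size depends on the probe set too.

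**Figure D3:**
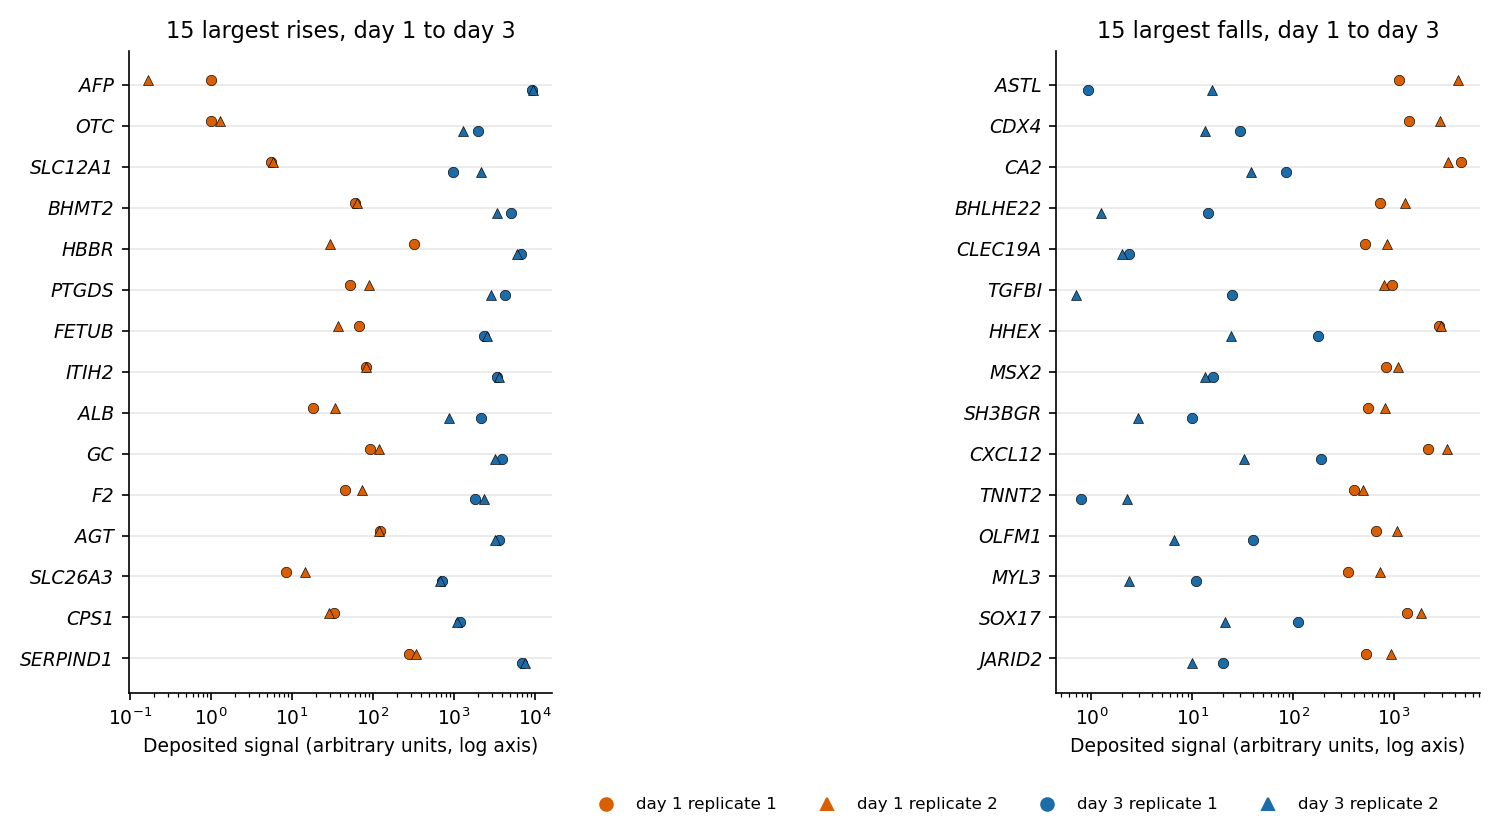
Deposited signals (arbitrary units, log axis) of the 15 largest rises on the left and the 15 largest falls on the right are shown for the 2 arrays of day 1 in orange and the 2 of day 3 in blue. Genes whose days overlap were not eligible, so both arrays of one day lie beyond both arrays of the other throughout.

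The 15 largest falls were ASTL, CDX4, CA2, BHLHE22, CLEC19A, TGFBI, HHEX, MSX2, SH3BGR, CXCL12, TNNT2, OLFM1, MYL3, SOX17 and JARID2. ASTL, an astacin-type metalloprotease, had the largest, with signals of 1117 and 4288 on day 1 against 0.932 and 15.6 on day 3 and a log2 change of -6.36 ± 0.65 (adjusted p = 0.000537). The posterior homeobox gene CDX4 gave 1402 and 2870.2 on day 1 against 30.1 and 13.3 on day 3 (-5.48 ± 0.35, adjusted p = 7.98e-05). MSX2, a homeobox factor that responds to BMP signals, gave 839.6 and 1086 on day 1 against 15.9 and 13.3 on day 3. These transcripts were bright on both day 1 arrays and close to the floor on both day 3 arrays. Several day 3 signals of the 15 falls were below the added 16, so the sizes of these falls depend on that constant too and their order is not exact. HHEX, a homeobox factor of early endoderm and of blood vessel precursors, read 2757 and 2929 on day 1 against 177 and 24.4 on day 3. SOX17, a defining factor of definitive and extraembryonic endoderm, read 1347 and 1869 on day 1 against 112 and 21.3 on day 3. CXCL12, a chemokine that guides migrating cells, read 2160 and 3319.6 on day 1 against 190.4 and 32.8 on day 3. In these 3 genes day 3 replicate 1 was well above replicate 2, though below both day 1 arrays. TNNT2 and MYL3, the troponin T and a myosin light chain of heart muscle, had 405 and 490.0 on day 1 against 0.794 and 2.24 on day 3 and 353 and 720.1 on day 1 against 10.8 and 2.37 on day 3, in that order. CA2, a carbonic anhydrase of red cells and many epithelia, gave 4555 and 3450.2 on day 1 against 85.5 and 37.9 on day 3. JARID2, a partner of the Polycomb complex that methylates histone H3, read 525 and 925 on day 1 against 20.2 and 9.85 on day 3. TGFBI, a secreted matrix protein, read 950.4 and 798 on day 1 against 24.7 and 0.700 on day 3.

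Of the 15 falls, 10 held with each array left out. The adjusted p of TGFBI was 0.0550 without day 1 replicate 1 and 0.0545 without day 3 replicate 2. That of HHEX was 0.0948 without day 1 replicate 1, 0.0764 without day 1 replicate 2 and 0.114 without day 3 replicate 2, and that of CXCL12 0.0934 without day 1 replicate 1, 0.107 without day 1 replicate 2 and 0.137 without day 3 replicate 2. OLFM1, which encodes a secreted olfactomedin, gave an adjusted p of 0.0553 without day 1 replicate 1, 0.0616 without day 1 replicate 2 and 0.0698 without day 3 replicate 2, and SOX17 gave an adjusted p of 0.115 without day 1 replicate 1, 0.116 without day 1 replicate 2 and 0.155 without day 3 replicate 2. One of the 3 probe sets of CXCL12 missed the threshold (adjusted p = 0.0891).

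To describe groups, 28 lists of 1000 genes in all were used, of which 851 had a probe set with a single symbol and 798 passed the filter on low signal. Each gene was counted by the probe set with the highest mean signal. Of 320 genes taken by the naming rule or named after their values were seen, not all of them described here, 140 had several probe sets tested, and in 47 these differed in their call. In 1 of them, HSP90B1, a chaperone of the endoplasmic reticulum, the calls were opposite (-0.57 for the brightest, adjusted p = 0.0132, and 0.76 for the other, adjusted p = 0.0374; neither was called as deposited). Over the 10553 genes tested in this way, 1529 rose (14.5%) and 1909 fell (18.1%), with a median change of -0.07. As deposited the shares were 6.7% and 28.1%, with a median of -0.52. Both day 3 arrays lay above both day 1 arrays for 34.0% of genes and below for 39.9% (15.4% and 54.1% as deposited), so lack of overlap alone is common here.

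**Figure D4:**
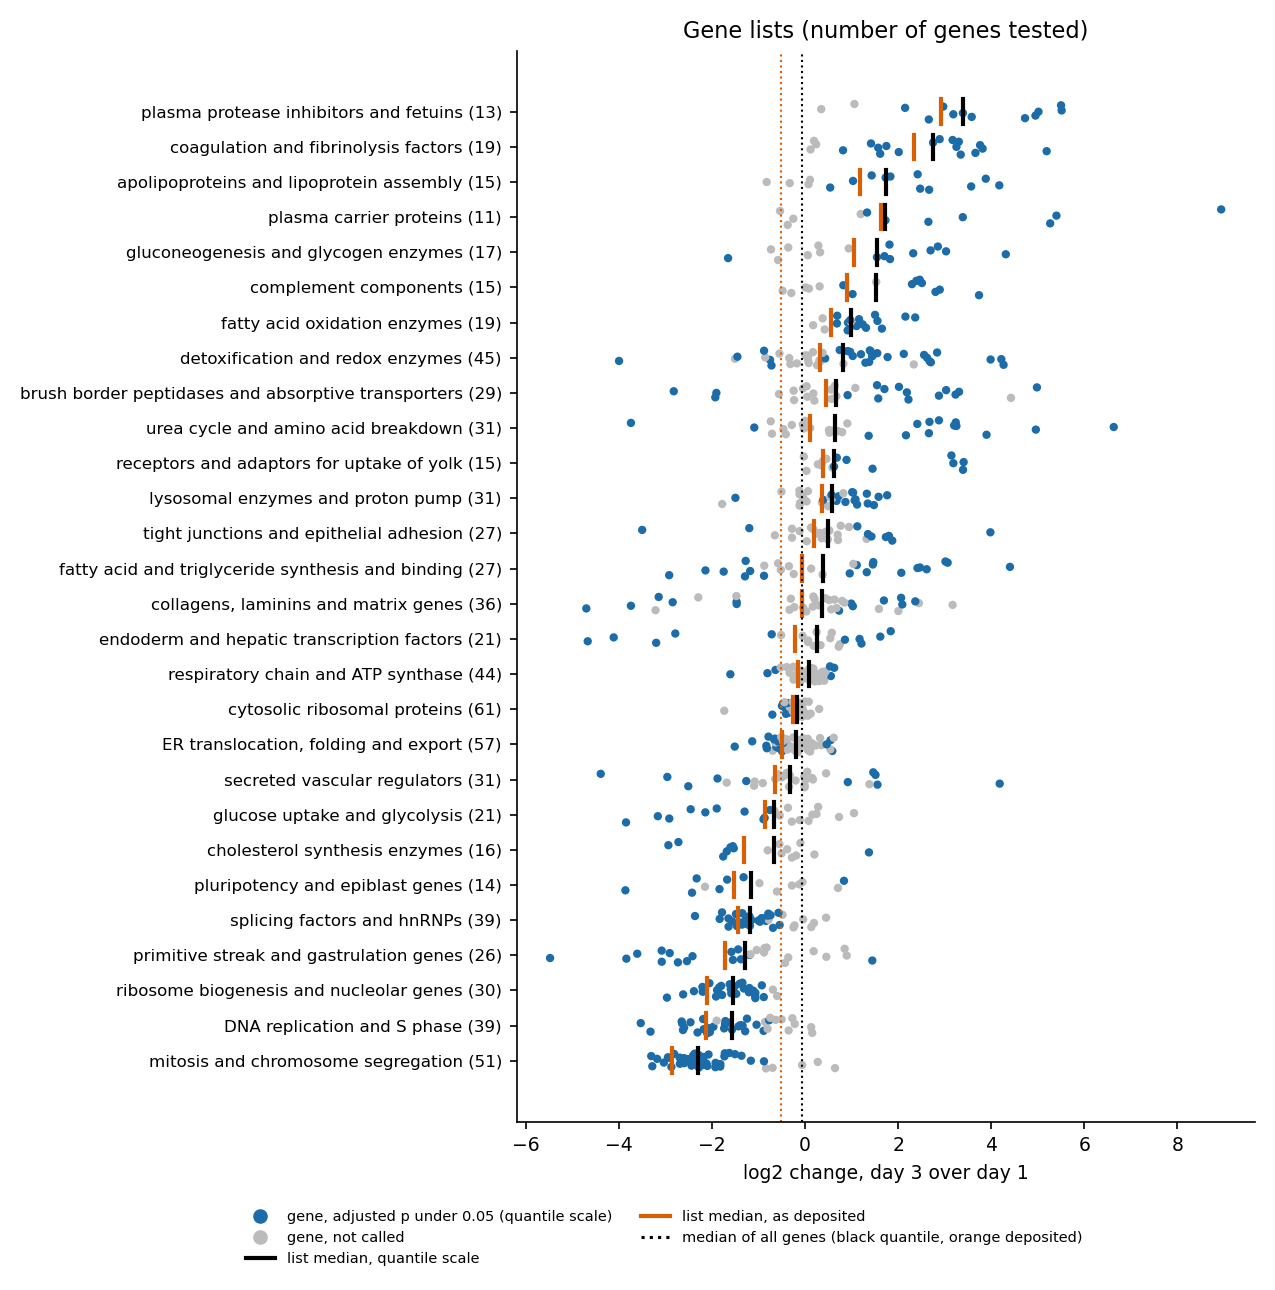
Log2 changes from day 1 to day 3 of the genes in 28 lists, with 1 point a gene (blue where the adjusted p was under 0.05), a black bar at the list median after quantile normalization and an orange bar at the median as deposited. Lists run from plasma protease inhibitors, median 3.39, to mitosis, median -2.30, and the dotted lines mark the medians of all genes, -0.07 and -0.52.

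Plasma proteins of every class listed were among the genes that rose. Among 11 carriers tested, 7 rose and none fell, among 19 coagulation and fibrinolysis factors 16 and none, among 13 protease inhibitors and fetuins 11 and none, and among 15 complement components 9 and none. The deposited signals gave 6, 14, 11 and 7 rises with no fall. Median changes were 1.73, 2.75, 3.39 and 1.53. Only the complement count moved by more than 1.5 times when an array was left out, to 5 without day 1 replicate 2. Neither the brightest probe set of TTR (adjusted p = 0.0823) nor the copper carrier CP (144 and 161 on day 1 against 68.9 and 50.2 on day 3, adjusted p = 0.671) was called. The other, dimmer probe set of TTR rose by 2.11 (adjusted p = 0.00874; 0.0142 as deposited), so its 2 probe sets disagree.

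Among the carriers, HPX, which binds heme, gave 72.9 and 75.6 on day 1 against 399.5 and 1027 on day 3. APOH, a phospholipid-binding plasma glycoprotein, gave 127 and 195 on day 1 against 623 and 812 on day 3. TF, the iron carrier transferrin (ovotransferrin in birds), was bright throughout at 2933 and 3916 on day 1 against 9939.8 and 11152 on day 3, a log2 change of 1.73 ± 0.11 (adjusted p = 9.36e-05). The lower day 3 value of each lay above the higher day 1 value. A second bright probe set of TF rose by 2.18, and of the other 2, one changed by -0.27 (adjusted p = 0.373) and one by 0.74 (adjusted p = 0.134). In the clotting cascade, F7, the protease that starts the extrinsic branch, read 70.4 and 94.0 on day 1 against 1119.7 and 816 on day 3, and F5, the cofactor of prothrombin activation, read 69.6 and 132 on day 1 against 745 and 689 on day 3. PROZ, a vitamin K-dependent cofactor, read 93.3 and 134 on day 1 against 1213 and 1196 on day 3 (3.76 ± 0.21, adjusted p = 4.26e-05). PLG, the zymogen of the clot-dissolving enzyme plasmin, read 278 and 573 on day 1 against 2993 and 3266 on day 3. The clotting factors F7 and F5 and the zymogen of plasmin thus rose together. The 3 fibrinogen chains rose by unequal amounts. FGA had 477 and 589 on day 1 against 4228 and 4536 on day 3 (3.35 ± 0.30), FGG had 2635 and 3418 on day 1 against 8275 and 8179.7 on day 3 (1.61 ± 0.20) and FGB had 4909 and 7097 on day 1 against 9700.3 and 10853 on day 3 (0.82 ± 0.11, adjusted p = 0.00192). FGB and FGG were near the upper end of the signal range on day 3. The cofactors and stabilizers F8 (59.4 and 52.6 on day 1 against 27.7 and 55.8 on day 3), THBD and F13B were dim on both days and not called (adjusted p = 0.832, 0.735 and 0.590).

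Among the inhibitors, SERPINA10, which blocks activated factor X together with protein Z, gave 1089 and 1366 on day 1 against 6099.6 and 6427 on day 3 (2.66 ± 0.19). SERPINF1, the antiangiogenic serpin PEDF, gave 80.4 and 215 on day 1 against 907 and 923 on day 3 (3.19 ± 0.30). SERPING1, the inhibitor of the first complement component, was dim and not called (adjusted p = 0.0560). In the complement system, the recognition lectin MBL2 had 72.7 and 94.6 on day 1 against 454 and 509.8 on day 3 and its protease MASP2 had 24.3 and 33.4 on day 1 against 380.0 and 475 on day 3. C1R and C1S, proteases of the classical branch, gave 277 and 420.3 on day 1 against 1187 and 1232 on day 3 and 26.5 and 43.8 on day 1 against 139 and 232 on day 3, respectively. C8G, a subunit of the membrane attack complex, read 49.6 and 34.4 on day 1 against 213 and 351 on day 3. Initiating proteases of both the lectin and the classical branch, and a terminal component, were thus higher on day 3. For the regulatory protease CFI the brightest probe set was bright on both days (7143 and 7541 on day 1 against 7478 and 9348 on day 3) and was not called (adjusted p = 0.126). Its other probe set rose by 3.82 (adjusted p = 0.000151; 7.92e-05 as deposited).

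Most genes for making lipoproteins were higher on day 3. Of 15 apolipoprotein and assembly genes, 11 rose and none fell; as deposited 9 rose and 1 fell (median 1.73, deposited 1.18). APOA4, an apolipoprotein of intestinal lipoproteins, had 315 and 479.5 on day 1 against 5505 and 5545 on day 3 (4.17 ± 0.18, adjusted p = 2.18e-05). PLTP, which moves phospholipid between lipoproteins, had 363 and 423 on day 1 against 4355 and 5004 on day 3. APOV1, the avian apolipoprotein of very low density particles that inhibits lipoprotein lipase, had 5.08 and 10.5 on day 1 against 171 and 249 on day 3. These 3 were apart between the days. APOA5, a regulator of triglyceride clearance, gave 682 and 1187 on day 1 against 3932 and 4043 on day 3 and TM6SF2, which helps load lipid onto nascent particles, gave 209 and 228 on day 1 against 957 and 1037 on day 3. The brightest of 7 probe sets of APOB changed by 0.54 ± 0.12 (adjusted p = 0.0114), and it missed the threshold as deposited (adjusted p = 0.0581) and with 1 array out (adjusted p = 0.0776 without day 1 replicate 2, 0.0652 without day 3 replicate 1 and 0.0713 without day 3 replicate 2). The other 6, all dimmer, rose by 2.53 to 3.91 and were called on both scales (adjusted p from 0.00105 to 0.0060), so the size for APOB depends on the probe set. APOA1, the main protein of high density lipoprotein, had 8594 and 9613 on day 1 against 8964 and 9612 on day 3 and was not called (adjusted p = 0.605).

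Receptors and adaptors for yolk uptake included 8 of 15 tested genes higher on day 3 and none lower (5 and 0 as deposited; median 0.62, deposited 0.39). CUBN, the large scavenger receptor that binds apolipoprotein A-I and vitamin B12 complexes, had 1849.7 and 2058 on day 1 against 4783 and 4633 on day 3 (1.45 ± 0.23, adjusted p = 0.00353). AMN, its membrane anchor, rose by 3.19 ± 0.47 (adjusted p = 0.00253). DAB2, the endocytic adaptor for such receptors, had 66.0 and 149 on day 1 against 774 and 600.0 on day 3 (3.14 ± 0.32). Both components of the cubilin complex and its adaptor were thus higher. SCARB1, a receptor for high density lipoprotein, read 427 and 456 on day 1 against 4085 and 3368 on day 3 and CD36, a fatty acid and lipoprotein receptor, read 59.2 and 72.8 on day 1 against 647 and 523 on day 3. LRP2, megalin, changed by 0.68 ± 0.20 (adjusted p = 0.0364), a call that was lost as deposited (adjusted p = 0.476) and gave an adjusted p of 0.117 without day 1 replicate 1, 0.158 without day 1 replicate 2, 0.168 without day 3 replicate 1 and 0.107 without day 3 replicate 2. VLDLR, the receptor for yolk precursors in the oocyte, had 338 and 296 on day 1 against 245 and 235 on day 3, with no call (adjusted p = 0.806).

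Of 29 brush border peptidases and transporters, 12 rose and 3 fell (9 and 3 as deposited; median 0.67, deposited 0.44), and without day 3 replicate 2 the rises numbered 7. The peptidases DPP4 and ANPEP, which trim peptides at the intestinal surface, had 647 and 766 on day 1 against 4163 and 5194 on day 3 (3.03 ± 0.19) and 401 and 305 on day 1 against 3016 and 2463 on day 3 (3.31 ± 0.42). SLC3A1, the heavy chain of a transporter for cystine and basic amino acids, had 485 and 831 on day 1 against 2020.2 and 1839.9 on day 3. SLC13A3, a carrier of dicarboxylates, had 326 and 348 on day 1 against 2149 and 2738 on day 3. The glucose transporter SLC5A1 gave 734 and 973 on day 1 against 655 and 686 on day 3 and was not called (adjusted p = 0.657), and neither was the carnitine carrier SLC22A5 (3913 and 3556 on day 1 against 5635 and 4885 on day 3, adjusted p = 0.166; a dimmer probe set rose by 0.87, adjusted p = 0.0257, and was not called as deposited).

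Of 31 lysosomal enzymes and proton pump subunits, 15 rose and 1 fell, but the deposited signals left 4 rises and 2 falls (median 0.57, deposited 0.38). Rises numbered 7 without day 1 replicate 1, 5 without day 1 replicate 2, 7 without day 3 replicate 1 and 4 without day 3 replicate 2, and no fall was left without any of these arrays. HEXA, a subunit of beta-hexosaminidase, had 98.1 and 150.2 on day 1 against 261 and 316 on day 3 (1.76 ± 0.27). CTSA, a protective carboxypeptidase, had 1391 and 1734 on day 1 against 3580.5 and 3157 on day 3 (1.33 ± 0.23). Both were called on both scales. NPC2, which exports cholesterol from lysosomes, was bright at 6549 and 8719.6 on day 1 against 10120 and 11455 on day 3, with a change of 0.57 ± 0.11 that missed the threshold as deposited (adjusted p = 0.0684) and gave an adjusted p of 0.0561 without day 1 replicate 1 and 0.0689 without day 3 replicate 2. Most lysosomal rises were thus not called on the deposited scale.

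Genes for making glucose, oxidizing fat and breaking down amino acids were higher in part, and several genes of glucose use were lower. Of 17 genes of gluconeogenesis and glycogen, 9 rose and 1 fell (8 and 2 as deposited; median 1.55, deposited 1.05). PCK1 and PCK2, the cytosolic and mitochondrial enzymes that make phosphoenolpyruvate, had 169 and 204 on day 1 against 3288 and 2762 on day 3 (4.31 ± 0.27) and 250.1 and 258 on day 1 against 1168 and 1233 on day 3 (2.70 ± 0.33). FBP1, which removes a phosphate from fructose bisphosphate, had 2097 and 2814 on day 1 against 10907 and 10538 on day 3 (2.32 ± 0.12, adjusted p = 3.87e-05). SLC37A4, the glucose 6-phosphate carrier of the endoplasmic reticulum, had 83.1 and 206 on day 1 against 792 and 634 on day 3. All 4 were higher on both arrays of day 3. GYS2, the liver glycogen synthase, gave 41.5 and 73.2 on day 1 against 134 and 176 on day 3 (1.81 ± 0.25). PYGL, the phosphorylase that breaks glycogen down, gave 856 and 1099 on day 1 against 1222 and 1634 on day 3 without a call (adjusted p = 0.0549).

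Glucose uptake and glycolysis went the other way in part, with none of 21 genes higher and 10 lower on either scale (median -0.66, deposited -0.85); the falls numbered 6 without day 1 replicate 1, 5 without day 1 replicate 2, 6 without day 3 replicate 1 and 6 without day 3 replicate 2, and 1 rise was called without day 1 replicate 2. SLC2A1, the main glucose transporter of embryonic cells, had 2385 and 4359 on day 1 against 166 and 156 on day 3 (-3.84 ± 0.68, adjusted p = 0.00515). SLC16A3, which exports lactate, had 256 and 419.6 on day 1 against 5.29 and 19.5 on day 3 (-3.16 ± 0.39). GPI, the isomerase of the second step, had 3142 and 4227 on day 1 against 751 and 921 on day 3 (-1.90 ± 0.21). ALDOC, an aldolase, had 2622 and 3162 on day 1 against 927 and 973 on day 3 (-1.30 ± 0.23). In the lower part of the pathway, GAPDH had 7183 and 9764 on day 1 against 8359 and 8826 on day 3 (adjusted p = 0.632). ENO1 had 7802 and 10256 on day 1 against 7542 and 8759.9 on day 3 (adjusted p = 0.540). Neither of these bright genes was called. The phosphoglycerate kinase gene PGK2, also of the lower part, was lower on day 3 (-2.14, limma adjusted p = 0.000779, and -2.30 as deposited). Signals of GAPDH and ENO1 overlapped between the days, and those of SLC2A1, SLC16A3, GPI and ALDOC did not.

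Of 19 enzymes of fatty acid oxidation, 15 rose and none fell, and 5 rose as deposited (median 0.99, deposited 0.57). The rises numbered 7 without day 1 replicate 1, 7 without day 1 replicate 2 and 8 without day 3 replicate 2. CPT1A, the gate for fatty acids into mitochondria, had 115 and 190.3 on day 1 against 596 and 496 on day 3 (2.37 ± 0.22). CPT2, its inner membrane partner, had 463 and 616 on day 1 against 1101 and 1342 on day 3 (1.65 ± 0.24). SLC25A20, the carnitine carrier between them, had 1445 and 1864 on day 1 against 3521 and 3602 on day 3 (1.31 ± 0.15). The 3 steps of the carnitine shuttle were thus higher on both scales. EHHADH, a peroxisomal bifunctional enzyme, gave 213 and 278 on day 1 against 578 and 992 on day 3. ACADL, the long-chain dehydrogenase, gave 2235 and 2603 on day 1 against 4536 and 5608 on day 3. Few respiratory chain and ATP synthase genes passed the test, with 3 of 44 higher and 3 lower (0 and 3 as deposited), and with medians of 0.08 and -0.16 that differ in sign between the scales. Leaving out an array gave 0 without day 1 replicate 1, 1 without day 1 replicate 2 and 0 without day 3 replicate 1 for the rises and 1 without day 1 replicate 2, 1 without day 3 replicate 1 and 1 without day 3 replicate 2 for the falls. CYCS, cytochrome c, had the largest of the falls, with 3839 and 6542 on day 1 against 1636 and 1419 on day 3 (-1.60 ± 0.22).

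Part of the genes of amino acid breakdown rose. Of 31 genes of the urea cycle and amino acid catabolism, 12 rose and 2 fell (11 and 5 as deposited), and each single left-out array of day 1 or day 3 left 1 fall. ASS1, which joins citrulline and aspartate, had 795 and 994 on day 1 against 6965 and 6361 on day 3 (3.25 ± 0.19, adjusted p = 5.92e-05). With OTC and CPS1, enzymes of 3 successive steps toward arginine were higher. ARG2, the arginase of mitochondria, was lower at 755 and 1267 on day 1 against 42.5 and 32.6 on day 3 (-3.74 ± 0.33, adjusted p = 0.000276). Tyrosine breakdown was represented by HPD (344 and 496 on day 1 against 2042 and 1882 on day 3), HGD (81.7 and 74.2 on day 1 against 896 and 1093 on day 3) and FAH (389.8 and 609.8 on day 1 against 2274 and 2493 on day 3), enzymes of its middle and last steps, which rose by 2.66 ± 0.18, 3.90 ± 0.31 and 2.67 ± 0.20. The transaminases GOT1 (1703 and 2409 on day 1 against 1578 and 1613 on day 3) and GOT2 (3632 and 4223 on day 1 against 3754 and 4245 on day 3) were not called (adjusted p = 0.852 and 0.809).

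Lipid synthesis genes were mixed, and 7 of 16 genes of cholesterol synthesis fell. Among 27 genes for fatty acid and triglyceride synthesis and binding, 12 rose and 7 fell (8 and 9 as deposited), and the medians of 0.38 and -0.06 had opposite signs. The rises numbered 7 without day 1 replicate 1, 5 without day 1 replicate 2 and 6 without day 3 replicate 2, and the falls 4 without day 1 replicate 2. MOGAT1, which remakes diacylglycerol from monoacylglycerol, had 287 and 514 on day 1 against 2706 and 2271 on day 3 (3.06 ± 0.18). ACSL5, which activates long-chain fatty acids, had 84.4 and 115 on day 1 against 1672 and 1832 on day 3 (4.40 ± 0.47). AGPAT3, an acyltransferase, had 486 and 681 on day 1 against 1811 and 1808 on day 3 (2.07 ± 0.24). MOGAT1, ACSL5 and AGPAT3, which act on preformed fatty acids, were thus higher. ACSL1, of the same family as ACSL5, was not called (-0.58, limma adjusted p = 0.133) and fell as deposited (-1.21, adjusted p = 0.0311). The 2 fatty acid binding proteins named moved in opposite directions, FABP7 with 892 and 1369 on day 1 against 5698 and 5393 on day 3 (2.61 ± 0.14) and FABP5 with 92.3 and 180.5 on day 1 against 11.8 and 4.91 on day 3 (-2.14 ± 0.26). FASN, the fatty acid synthase, had 674 and 998 on day 1 against 187 and 282 on day 3 (-1.18 ± 0.27, adjusted p = 0.0147), a fall that was lost with 1 array out (adjusted p = 0.0806 without day 1 replicate 1, 0.0748 without day 1 replicate 2 and 0.0990 without day 3 replicate 1).

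Of 16 genes listed for cholesterol synthesis, 7 fell and 1 rose (10 and 1 as deposited, with medians of -0.68 and -1.31). Fewer falls were left without day 1 replicate 2. SQLE, squalene epoxidase, had 849.7 and 1342 on day 1 against 97.1 and 67.7 on day 3 (-2.93 ± 0.49). FDPS, which makes farnesyl diphosphate, had 626 and 1031 on day 1 against 81.9 and 55.1 on day 3 (-2.72 ± 0.39). HMGCS1, which makes the HMG-CoA precursor, had 461 and 714 on day 1 against 105 and 89.1 on day 3 (-1.76 ± 0.24). Early and middle steps held these lower genes. Of the late steps, HSD17B7 was dim (mean signal 42.5) and lower (-1.68, limma adjusted p = 0.00518). Its call was lost without day 1 replicate 2, where the change was -1.44. The exception was ACAT2, a thiolase at the entry, with 1114 and 1638 on day 1 against 2893 and 2999 on day 3 (1.37 ± 0.24, adjusted p = 0.00520). DHCR7, the last reductase, and the regulator SREBF2 were not called (adjusted p = 0.634 and 0.274).

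Detoxification and redox enzymes mostly rose or were not called, with 23 of 45 higher and 5 lower (19 and 6 as deposited; median 0.83, deposited 0.33), with the falls numbering 3 without day 1 replicate 1, 2 without day 1 replicate 2, 3 without day 3 replicate 1 and 2 without day 3 replicate 2. CYP2C18, a drug-metabolizing cytochrome, had 190.4 and 241 on day 1 against 2985 and 3467 on day 3 (4.22 ± 0.18, adjusted p = 2.18e-05). SOD3, the secreted superoxide dismutase, had 111 and 225 on day 1 against 2146 and 2824 on day 3 (4.26 ± 0.31). EPHX1, which hydrolyses epoxides, had 81.9 and 143 on day 1 against 471 and 512 on day 3 (2.62 ± 0.26). SULT1C3, a sulfotransferase, had 1133 and 1238 on day 1 against 6047 and 6274 on day 3. The cytosolic SOD1 (4711 and 6499 on day 1 against 6165 and 6709 on day 3) and thioredoxin TXN (6649.7 and 8638 on day 1 against 7284 and 7204 on day 3) were bright on both days and not called (adjusted p = 0.0682 and 0.676).

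Many early developmental regulators were lower on day 3. Of 26 primitive streak and gastrulation genes, 14 fell and 1 rose (19 and 0 as deposited; median -1.28, deposited -1.72), the falls numbering 8 without day 1 replicate 2 and 8 without day 3 replicate 2 and the single rise gone without any one array of day 1 or day 3. TBXT, brachyury, the defining factor of streak and mesoderm, had 124 and 712 on day 1 against 5.48 and 1.72 on day 3 (-3.60 ± 0.50, adjusted p = 0.00192). The Hox gene HOXB1 had 166 and 360.4 on day 1 against 7.25 and 5.83 on day 3 (-3.08 ± 0.36). The noncanonical ligands WNT5A and WNT11 had 743 and 1249 on day 1 against 92.0 and 76.0 on day 3 (-2.73 ± 0.36) and 165 and 248 on day 1 against 17.6 and 9.36 on day 3 (-2.42 ± 0.30). Day 1 replicate 2 was the higher of the pair in all of these. BMP2 and BMP7, ligands that pattern the early embryo, gave 397 and 749 on day 1 against 48.1 and 25.5 on day 3 (-2.91 ± 0.41) and 354 and 617 on day 1 against 28.4 and 20.7 on day 3 (-3.08 ± 0.45). CFC1, a coreceptor for Nodal, had 595 and 1446 on day 1 against 86.1 and 6.27 on day 3, with a fall of 3.84 ± 1.02 (adjusted p = 0.0250) that gave an adjusted p of 0.0829 without day 1 replicate 1, 0.143 without day 1 replicate 2 and 0.161 without day 3 replicate 2. The one rise was CDX1, a homeobox factor of the intestinal lineage, at 206 and 241 on day 1 against 335 and 497 on day 3 (adjusted p = 0.0326, 0.148 as deposited).

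Among 14 pluripotency and epiblast genes, 6 fell and 1 rose (8 and 1 as deposited), and falls numbered 2 without day 1 replicate 2 and 2 without day 3 replicate 2. LIN28A, an RNA-binding repressor of let-7, had 516 and 1305 on day 1 against 78.2 and 119.6 on day 3 (-2.33 ± 0.35). SALL1, a zinc finger factor, had 401 and 1046 on day 1 against 25.1 and 11.4 on day 3 (-3.86 ± 0.60). The riser was EPCAM, an adhesion protein of epithelia as well as of stem cells, with 2883 and 4594 on day 1 against 6125 and 6240.5 on day 3 (0.84 ± 0.16, adjusted p = 0.00750), which gave an adjusted p of 0.0587 without day 1 replicate 1. Of 11 neural and surface ectoderm markers, 4 fell and none rose (5 and 0 as deposited; falls numbered 2 without day 1 replicate 2 and 2 without day 3 replicate 2), among them the neurofilament NEFM with 201 and 349 on day 1 against 0.846 and 0.744 on day 3 (-3.62 ± 0.25) and the homeobox gene DLX5 with 271 and 727 on day 1 against 22.6 and 27.4 on day 3 (-2.98 ± 0.41). Their summed normalized signal was 766 and 1527 on day 1 against 175 and 214 on day 3. Of 3 germ cell markers tested, 2 fell (2 as deposited; falls numbered 1 without day 1 replicate 1, 1 without day 1 replicate 2 and 1 without day 3 replicate 1), and PIWIL1, a piRNA-binding protein, had 140.1 and 281 on day 1 against 25.4 and 9.13 on day 3. Of 7 cardiac muscle markers, 4 fell and none rose (4 and 0 as deposited), and 3 or 4 were called with any one array of day 1 or day 3 left out. TNNC1, troponin C, had 726 and 1171 on day 1 against 54.9 and 51.6 on day 3 (-3.23 ± 0.34). The part that cells of other lineages in the day 1 pools take in these falls was not tested.

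Endoderm and hepatic transcription factors held 5 of 21 higher and 5 lower genes (23.8% each, not far from the shares of all genes; 2 and 5 as deposited), with medians of 0.25 and -0.22 of opposite sign. The rises numbered 3 without day 1 replicate 1, 1 without day 1 replicate 2, 2 without day 3 replicate 1 and 2 without day 3 replicate 2, and the falls 1 without day 1 replicate 1, 2 without day 1 replicate 2, 3 without day 3 replicate 1 and 1 without day 3 replicate 2. CREB3L3, a hepatic and intestinal factor of lipid and acute phase genes, had 531 and 655 on day 1 against 1246 and 1395 on day 3 (1.62 ± 0.28, adjusted p = 0.00471). CEBPA, a factor of mature hepatocytes, was dim at 9.49 and 19.0 on day 1 against 69.2 and 64.4 on day 3 (1.84 ± 0.43), and its adjusted p was 0.0841 without day 1 replicate 1, 0.0869 without day 1 replicate 2, 0.0677 without day 3 replicate 1 and 0.0735 without day 3 replicate 2. GATA5, a factor of early endoderm and heart, fell with 2001 and 3426 on day 1 against 248 and 163 on day 3 (-3.20 ± 0.34, adjusted p = 0.000652). GATA6, of the same family, had 927 and 1092 on day 1 against 1677 and 1959.6 on day 3 (1.21 ± 0.31, adjusted p = 0.0223, 0.0673 as deposited, and with 1 array out 0.0527 without day 1 replicate 1, 0.158 without day 1 replicate 2, 0.0728 without day 3 replicate 1 and 0.117 without day 3 replicate 2). HNF4A, a master regulator of liver and gut genes, had 1338 and 1495 on day 1 against 1746 and 2085 on day 3. FOXA2, a pioneer factor of endoderm, had 603 and 687 on day 1 against 649.8 and 671 on day 3. Neither was called (adjusted p = 0.107 and 0.302), though 1 dim probe set of HNF4A was (0.78, adjusted p = 0.0431, not as deposited). The change of XBP1, which drives secretory capacity, was -0.71 ± 0.16 (adjusted p = 0.0137), and it gave an adjusted p of 0.0886 without day 1 replicate 1, 0.0685 without day 3 replicate 1 and 0.0852 without day 3 replicate 2.

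Most genes listed for growth and division fell. Of 51 mitosis and chromosome segregation genes, 46 fell and none rose (47 and 0 as deposited; median -2.30, deposited -2.86), and falls numbered 23 without day 1 replicate 2 and 25 without day 3 replicate 2. Of 39 DNA replication genes 28 fell and none rose (33 and 0 as deposited; median -1.57, deposited -2.13), and falls numbered 11 without day 1 replicate 1, 9 without day 1 replicate 2, 18 without day 3 replicate 1 and 10 without day 3 replicate 2. CCNA2, the cyclin of S phase and mitosis, had 727 and 1087 on day 1 against 138 and 149.8 on day 3 (-1.92 ± 0.24, adjusted p = 0.00139). TOP2A, which untangles chromosomes, had 839.9 and 1130.5 on day 1 against 131 and 124 on day 3 (-2.23 ± 0.30). NCAPG, a condensin subunit, had 344 and 563 on day 1 against 41.1 and 31.1 on day 3 (-2.59 ± 0.35). Signals of all 3 were lower on both day 3 arrays than on either day 1 array. CDT1, which licenses replication origins, had 449 and 574 on day 1 against 84.3 and 58.8 on day 3 (-1.97 ± 0.33). MCM10, which helps start forks, had 45.8 and 177 on day 1 against 1.49 and 2.43 on day 3 (-2.19 ± 0.37). RFC4, a clamp loader subunit, had 702 and 1236 on day 1 against 228 and 239 on day 3 (-1.36 ± 0.21). Members that did not pass included the kinetochore gene SPC25 (73.7 and 104 on day 1 against 159 and 49.1 on day 3) and the clamp loader subunit RFC5 (491 and 743 on day 1 against 381 and 508 on day 3), with adjusted p of 0.406 and 0.712. The proliferation marker MKI67 had 1357 and 1978 on day 1 against 167 and 64.5 on day 3 (-3.28 ± 0.63, adjusted p = 0.00699), a call that gave an adjusted p of 0.0509 without day 1 replicate 2 and 0.0572 without day 3 replicate 2. The summed normalized signal of the mitosis list was 35877 and 36237 on day 1 against 8766 and 6093 on day 3.

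Genes of ribosome assembly and RNA splicing also fell. Of 30 nucleolar genes, 28 fell and none rose (30 and 0 as deposited; median -1.55, deposited -2.09), and falls numbered 18 without day 1 replicate 1 and 18 without day 3 replicate 2. Of 39 splicing factors and hnRNPs 31 fell and none rose (31 and 0 as deposited; median -1.18, deposited -1.45), and falls numbered 17 without day 1 replicate 1, 15 without day 1 replicate 2 and 19 without day 3 replicate 2. NCL, nucleolin, had 4776 and 7191 on day 1 against 1814 and 1865 on day 3 (-1.58 ± 0.18, adjusted p = 0.000779). NOP56, a core protein of small nucleolar particles, had 1757 and 2117 on day 1 against 424 and 344 on day 3 (-1.84 ± 0.25). GNL3, nucleostemin, had 1674 and 2724 on day 1 against 314 and 538 on day 3 (-1.91 ± 0.24). All nucleolar genes tested had their highest day mean on day 1. SNRPA1, a component of the U2 particle, had 1377 and 1604 on day 1 against 215 and 166 on day 3 (-2.36 ± 0.25, adjusted p = 0.000611). HNRNPA2B1, an abundant RNA-binding protein, had 3350.3 and 5122 on day 1 against 1266 and 1126 on day 3 (-1.64 ± 0.20). Of the dimmer probe sets of these genes, 1 of HNRNPA2B1 was called too (-1.91), and 2 of each gene were not (from -0.49 to 0.27). The splicing factors SF3B1 (1678 and 2647 on day 1 against 1536 and 1769.6 on day 3) and SRSF5 (482 and 916 on day 1 against 484 and 540.1 on day 3) were not called (adjusted p = 0.881 and 0.535). MYC, a driver of ribosome production, had 792 and 1070.2 on day 1 against 137 and 29.1 on day 3 (-2.97 ± 0.76, adjusted p = 0.0218) and gave an adjusted p of 0.109 without day 1 replicate 1, 0.101 without day 1 replicate 2 and 0.142 without day 3 replicate 2.

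Few ribosomal proteins passed the test, but after quantile normalization only 4 of 61 had a change above 0. The highest day mean lay on day 1 for 50 of them, against 41.2% of all genes. Mean signals of RPL19, RPS2 and RPL35 were 9826, 9791 and 9404, near the upper end of the signal range. Of 61, 8 fell after quantile normalization and none as deposited (median -0.18, deposited -0.26), and the falls numbered 2 without day 1 replicate 1, 0 without day 1 replicate 2, 2 without day 3 replicate 1 and 1 without day 3 replicate 2. RPS20 gave the highest signal of each of these arrays, which quantile normalization sets equal, with 12302 and 13740 on day 1 against 11415 and 11958 on day 3 (adjusted p = 1.00). Among 57 genes of endoplasmic reticulum translocation, folding and export, 12 fell and 3 rose (12 and 0 as deposited), the falls numbering 3 without day 1 replicate 1, 2 without day 1 replicate 2, 3 without day 3 replicate 1 and 3 without day 3 replicate 2 and no rise without any single array of day 1 or day 3. HSPA5, the main chaperone of the reticulum, had 6349 and 8309.6 on day 1 against 4214 and 3653 on day 3 (-0.82 ± 0.13, adjusted p = 0.00302). SRP14, a subunit of the signal recognition particle, had 1432 and 2954 on day 1 against 548 and 532 on day 3 (-1.51 ± 0.23). The translocon subunit SEC61B had 8952 and 10500 on day 1 against 7586 and 8459.7 on day 3 and was not called (adjusted p = 0.0684), but 1 of its other probe sets was (-0.55, adjusted p = 0.0354, not as deposited). Both shares on the first scale, 21.1% lower and 5.26% higher, can be read against 18.1% and 14.5% of all genes.

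Of 27 tight junction and adhesion genes, 7 rose and 2 fell (4 and 3 as deposited; median 0.49, deposited 0.20). Rises numbered 4 without day 1 replicate 1, 4 without day 1 replicate 2 and 4 without day 3 replicate 2, and falls 0 without day 1 replicate 2, 1 without day 3 replicate 1 and 0 without day 3 replicate 2. CDH17, the cadherin of liver and intestine, had 183 and 225 on day 1 against 2448 and 2637 on day 3 (3.98 ± 0.20, adjusted p = 3.66e-05). GJB1, the gap junction protein connexin 32 of hepatocytes, had 1701 and 1991 on day 1 against 5381 and 5542 on day 3 (1.80 ± 0.16). CDH2, the neural and mesodermal cadherin, had 329.5 and 1204 on day 1 against 47.2 and 11.3 on day 3 (-3.50 ± 0.67, adjusted p = 0.00699), and its call gave an adjusted p of 0.0643 without day 1 replicate 2 and 0.0571 without day 3 replicate 2. CLDN1 (4404 and 6403 on day 1 against 6684 and 6990.2 on day 3) and the keratin KRT7 (5615 and 6278 on day 1 against 6498 and 7188 on day 3) were bright on both days without a call (adjusted p = 0.0828 and 0.104).

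Of 36 matrix genes, 7 rose and 6 fell (5 and 7 as deposited), with medians of 0.36 and -0.06, of opposite sign. The shares of 19.4% and 16.7% lie near the 14.5% and 18.1% of all genes. Rises numbered 4 without day 1 replicate 1, 4 without day 1 replicate 2 and 4 without day 3 replicate 1, and falls 2 without day 1 replicate 1, 3 without day 1 replicate 2 and 2 without day 3 replicate 2. HSPG2, perlecan of basement membranes, had 104 and 85.2 on day 1 against 360.2 and 371 on day 3 (2.37 ± 0.33). COL18A1, a basement membrane collagen, had 2562 and 3431 on day 1 against 5066 and 5873 on day 3 (0.99 ± 0.14). FBN2, a fibrillin of embryonic microfibrils, had 339 and 598 on day 1 against 24.0 and 19.1 on day 3 (-3.14 ± 0.32). The laminin chains LAMC1 and LAMB1, also of basement membranes, changed by 0.21 ± 0.22 and 0.18 ± 0.19 and were not called (adjusted p = 0.532 and 0.525). Of 31 secreted vascular regulators, 5 rose and 5 fell (16.1% each, near the shares of all genes; 2 and 6 as deposited). Rises numbered 2 without day 1 replicate 1, 3 without day 1 replicate 2, 3 without day 3 replicate 1 and 2 without day 3 replicate 2, and falls 1 without day 1 replicate 1, 0 without day 1 replicate 2, 3 without day 3 replicate 1 and 0 without day 3 replicate 2. TIMP3, an inhibitor of metalloproteases that also blocks VEGF receptor 2, had 58.4 and 55.0 on day 1 against 955 and 948 on day 3 (4.18 ± 0.48, adjusted p = 0.000850). VEGFA had 364 and 569.9 on day 1 against 342 and 314 on day 3 and was not called (adjusted p = 0.804).

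Transcripts of blood, vessels and mesoderm were present in these endoderm samples and varied between replicates. Of 10 primitive red cell markers, 6 rose and 3 fell (6 and 4 as deposited), and their summed normalized signal was 10343 and 4221 on day 1 against 36568 and 30763 on day 3. The globins HBZ, HBE, HBAD and HBA1 had 791 and 129 on day 1 against 7886 and 7058 on day 3, 677 and 151 on day 1 against 7272 and 6689 on day 3, 653 and 196 on day 1 against 6082 and 5574 on day 3 and 886 and 301 on day 1 against 6578 and 6171 on day 3, in that order, and day 1 replicate 1 exceeded replicate 2 in each. SLC4A1, the anion exchanger of red cell membranes, had 10.5 and 3.03 on day 1 against 136 and 153 on day 3 (3.10 ± 0.51). The 3 that fell were CA2 and the blood progenitor factors TAL1 and LMO2, and 1 fall was left without day 1 replicate 1 and 1 without day 3 replicate 2. TAL1 had 283 and 229.8 on day 1 against 32.8 and 22.2 on day 3 (adjusted p = 0.0153) and gave an adjusted p of 0.109 without day 1 replicate 1, 0.0506 without day 3 replicate 1 and 0.0919 without day 3 replicate 2. LMO2 had 1441 and 1694 on day 1 against 180.2 and 13.2 on day 3 (adjusted p = 0.0386) and gave an adjusted p of 0.160 without day 1 replicate 1, 0.138 without day 1 replicate 2, 0.228 without day 3 replicate 2, 0.0550 without day 4 replicate 1 and 0.0547 without day 4 replicate 2.

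Endothelial and mesodermal markers were higher on day 3 replicate 1 than on replicate 2. Of 11 endothelial markers, 1 rose and 2 fell (1 and 3 as deposited), the falls numbering 0 without day 1 replicate 1, 0 without day 1 replicate 2, 1 without day 3 replicate 1 and 0 without day 3 replicate 2, and the summed signal was 2095 and 1429 on day 1 against 1389 and 642 on day 3. The endothelial marker that rose was ESAM, by 2.26 (limma adjusted p = 0.00544, and 0.0208 as deposited). CDH5, the cadherin of endothelial junctions, had 898 and 551 on day 1 against 196 and 3.62 on day 3 and was not called (adjusted p = 0.214). KDR, the main VEGF receptor, had 154 and 297 on day 1 against 15.2 and 3.32 on day 3 (adjusted p = 0.0116) and gave an adjusted p of 0.0595 without day 1 replicate 1, 0.0799 without day 1 replicate 2 and 0.0818 without day 3 replicate 2. Of 17 mesoderm and smooth muscle markers, 1 rose and 3 fell (1 and 6 as deposited), the falls numbering 0 without day 1 replicate 1, 0 without day 1 replicate 2 and 0 without day 3 replicate 2, and the sum was 11738 and 11602 on day 1 against 16346 and 11669 on day 3. The mesoderm and smooth muscle marker that rose was MYL9, by 1.18 (limma adjusted p = 0.00450, and 0.0333 as deposited). The fibrillar collagens COL1A1 (105 and 167 on day 1 against 1223 and 54.4 on day 3) and COL3A1 (83.9 and 52.3 on day 1 against 1386 and 56.5 on day 3) and the water channel AQP1 (12.6 and 4.96 on day 1 against 2408 and 69.1 on day 3) were high on day 3 replicate 1 and lower on day 3 replicate 2 and both day 1 arrays. The day 2 arrays differed likewise, with 2701 and 33.2 for COL1A1. None of these 3 was called (adjusted p = 0.548, 0.372 and 0.126), and no probe set had a signal of 0 on any array. The related collagen COL1A2 of the same marker list went the other way. Its brightest probe set changed by -2.29 (-2.70 as deposited) and was not called either (limma adjusted p = 0.427 and 0.235). Of 6 leukocyte markers, 1 rose (CD74, 121 and 223 on day 1 against 248 and 345 on day 3, adjusted p = 0.159 as deposited) and 1 fell (RUNX1, 35.3 and 64.9 on day 1 against 6.84 and 5.23 on day 3), against 0 and 1 as deposited. The first gave an adjusted p of 0.0506 without day 1 replicate 1 and 0.0647 without day 3 replicate 2, and the second 0.0681 without day 1 replicate 1, 0.0879 without day 1 replicate 2, 0.0580 without day 3 replicate 1 and 0.0781 without day 3 replicate 2. Falls made up 18.2% of endothelial, 17.6% of mesodermal and 16.7% of leukocyte markers, near the 18.1% of all genes. As deposited these shares were 27.3%, 35.3% and 16.7%, against 28.1%. Rises made up 9.09%, 5.88% and 16.7%, against 14.5% of all genes. Day 3 replicate 1 held more of the endothelial and mesodermal transcripts. The falls of HHEX, SOX17, CXCL12, LMO2, MYC and CFC1, in which it also exceeded replicate 2, stand beside them, and the part of adhering mesoderm in those values was not tested.

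**Figure D5:**
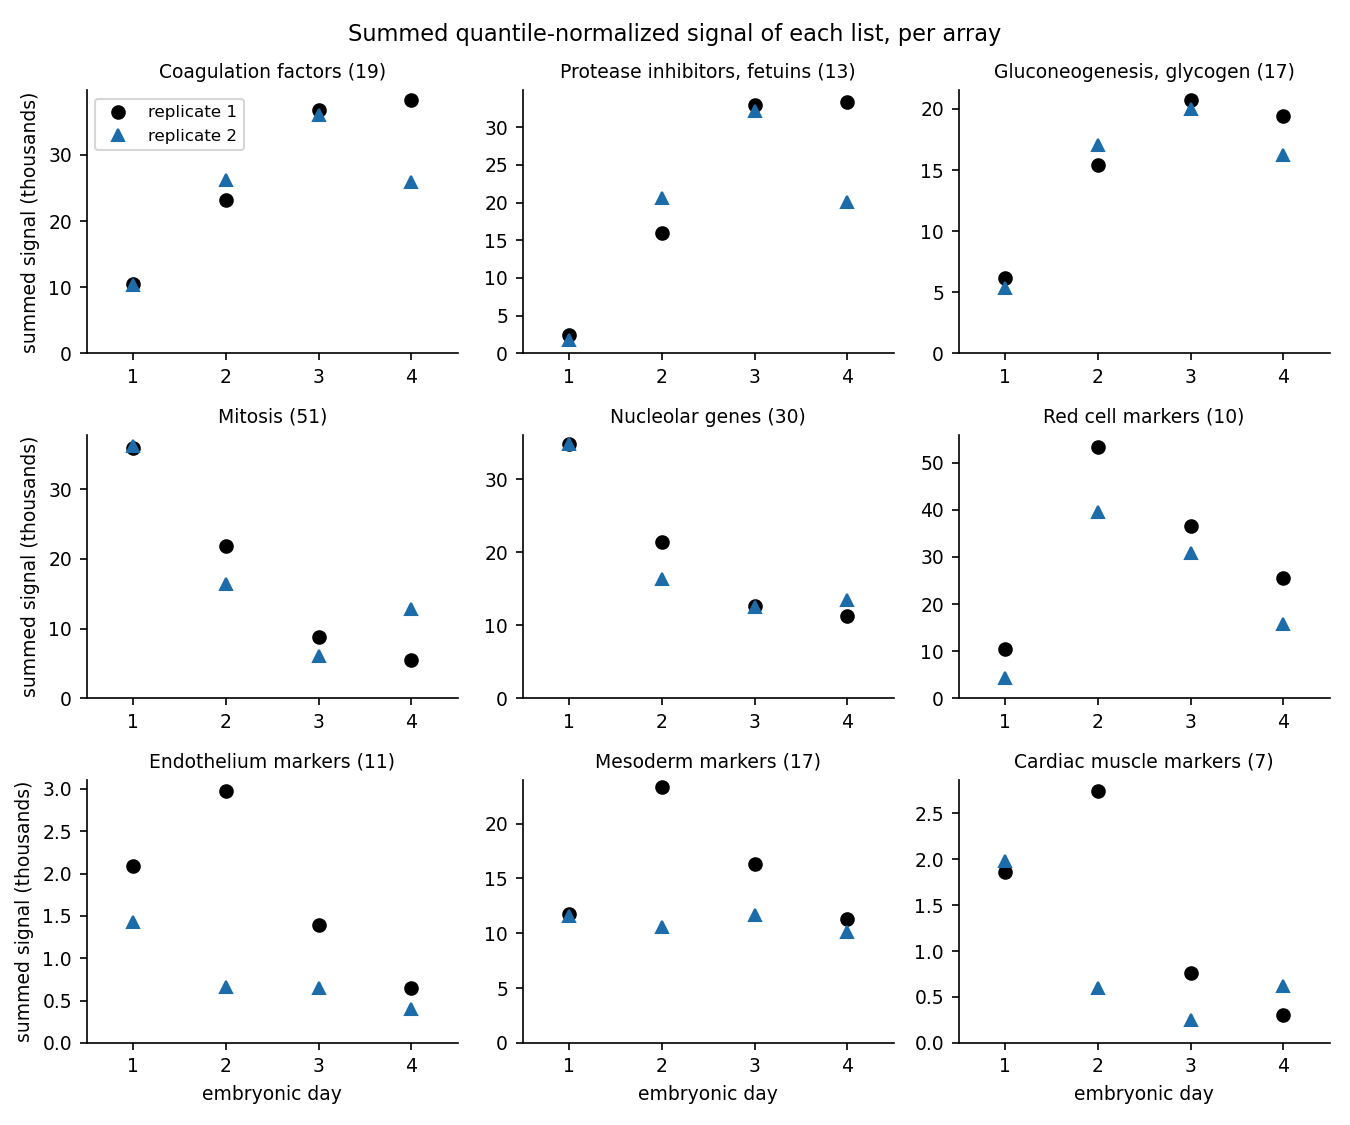
Summed quantile-normalized signal (axis in units of 1000, from 0) of 9 lists on the 8 arrays by embryonic day, with black circles for replicate 1 and blue triangles for replicate 2. Plasma protein lists climbed and growth lists dropped from day 1 to day 3 on both replicates, whereas endothelial, mesodermal and cardiac sums were higher on replicate 1 than on replicate 2 on days 2 and 3.

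Day 3 was taken from the start as the day of highest serum protein transcripts, with earlier results of these data known. It was set against the neighbouring days to describe that property, and the day means below are no independent support for it. Of 73 plasma protein and apolipoprotein genes, 54 rose from day 1 to day 3 and none fell (47 and 1 as deposited), with a median change of 2.39. The highest of the 4 day means fell on day 3 for 47 of them (64.4%, and 67.1% as deposited) and on day 4 for 18. Of all genes, 23.5% had it on day 3 (19.0% as deposited). The classes differed, as only 3 of 11 carriers had it on day 3 (5 as deposited) and 7 had it on day 4. On day 3 it lay for 14 of 19 coagulation factors and 11 of 13 inhibitors. The same held for 9 of 15 complement components and 10 of 15 apolipoprotein and assembly genes. The 2 arrays of day 4 lay apart in several of these lists. Summed normalized signals on day 4 replicates 1 and 2 were 38349 and 25882 for coagulation factors, against 36829 and 36105 on day 3. For inhibitors they were 33273 and 20080, against 32885 and 32143. Carriers and apolipoprotein genes also had their highest sum on day 4 replicate 1, whereas the complement sum was highest on day 3 replicate 2. Over all genes the highest mean was on day 1 for 41.2%, on day 2 for 12.8% and on day 4 for 22.4%. As deposited these shares were 68.0%, 6.84% and 6.17%. The median of these genes was 0.63 higher on day 3 than on day 2 and 0.21 higher than on day 4, against -0.03 and -0.0039 for all genes. No probe set passed the limma test between days 3 and 2 or between days 3 and 4 on either scale (0.0% each way), and at an unadjusted p under 0.05 there were 1430 higher and 1499 lower against day 2 and 788 and 676 against day 4. The smallest adjusted p among genes after quantile normalization was 0.0844 against day 2 and 0.112 against day 4. With 1 array left out, up to 10 probe sets were higher and 14 lower against day 2, both without day 4 replicate 1. The day of the highest level is therefore a description of the means, not a tested difference from day 2 or 4.

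Values of days 2 and 4 are set beside those of day 3 for genes named above, which were chosen for their change from day 1 to day 3, and comparisons with day 1 share its 2 arrays. AFP had signals of 3941 and 3588 on day 2 and 8872 and 4645 on day 4, beside the 9145 and 9497 of day 3. ALB had 245 and 271 on day 2 and 4366 and 565 on day 4, and SERPIND1 had 4409 and 5382 on day 2 and 6698 and 5007 on day 4. AFP was thus far above its day 1 signals on both arrays of day 2. CDX4 had 0.537 and 6.31 on day 2 and 10.8 and 21.9 on day 4, and ASTL had 28.8 and 13.3 on day 2 and 35.5 and 169 on day 4. Median changes of the plasma protein genes from day 1 were 1.36 on day 2, 2.39 on day 3 and 2.01 on day 4, and those of the mitosis list -0.86, -2.30 and -2.12. HBBR had its highest signals on day 2, at 8968 and 7575.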

How the data were processed

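Expression was measured on 8 Affymetrix arrays of chicken yolk sac endoderm, 2 for each of days 1 to 4. Total RNA (5 µg an array) was labelled with biotin in the one-cycle procedure, per the labels' protocols. The values deposited by the authors are linear intensity signals made with MAS5, per the submitters' processing notes. Neither version nor scaling target is given by them. Detection calls were not used. MAS5 subtracts mismatch probes, so dim signals carry large relative error, and the number of arrays limits the precision.

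Of 38535 probe sets, 96 controls were dropped. Of the other 38439, 27168 had 1 symbol in the platform annotation, 177 several and 11094 none; 26853 matched a current chicken RefSeq gene. Signals were quantile-normalized, transformed as log2(signal + 16), kept where the mean deposited signal exceeded its 40th percentile (9.96), and fitted with limma 3.58.1 in R 4.3.3 (lmFit, eBayes with an intensity trend, 4 residual and 4.67 prior degrees of freedom, 9.37 as deposited), with Benjamini-Hochberg adjustment over 23063 probe sets at 0.05. The fit was tested on simulated data. In every list a gene stood for its brightest probe set.

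The comparison, the 28 gene lists and the 8 marker lists were chosen with earlier results of these data known. Genes were named by a rule: the 15 largest changes each way called and separated on both scales, with a symbol that is not a placeholder; up to 5 called and 4 bright uncalled members of each list; and up to 4 bright markers. No gene passed against day 2 or day 4. FGA, FGB, FGG, SLC4A1, TAL1, LMO2, KDR, GATA6, CDX1, CEBPA, LRP2, CFC1, FOXA2, MYC, MKI67, FASN, BMP2, BMP7, COL1A1, COL3A1, HBAD and ARG2, besides the genes outside the lists, were named after their values were seen. Alternatives were the deposited signals, a median shift, scaling by 9 hybridization control probe sets, pseudocounts of 1 and 64, other filters, no trend, fewer arrays, a replicate block, averaged probe sets per gene, and each array left out. Neither sequences nor coordinates were used here.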

Additional observations from a re-analysis of the deposited data

How the results depend on the processing

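Counts of probe sets that differed between days 3 and 1 kept to within 1.5 times of 2783 higher and 3168 lower with the arrays shifted to a common median, either pseudocount, either filter, no intensity trend and the 4 arrays alone. As deposited they were 1219 and 5261, and with hybridization control scaling 1312 were higher, so rises were 18.8% and 30.4% of the calls, against 32.2% after the median shift and 46.8% after quantile normalization. With each array left out they ran from 1209 to 3005 higher and from 1046 to 3473 lower; where this left a day with 1 array, it was assumed to vary like the others. Against day 2 the range was 0 to 10 higher and 0 to 14 lower, against day 4 0 to 1 and 0 to 7, and against every other day 0 to 1 and 0 to 3. No called change of a named gene reversed its direction as deposited, after the median shift, with either pseudocount, with a replicate block or with 1 array left out. The other alternatives were not checked for single genes. The labels do not say whether the replicate numbers pair the samples. The correlation of replicate differences between days ranged from -0.11 (days 1 and 2) to 0.38 (days 2 and 3), and was -0.01 for days 1 and 3. A replicate block gave 2645 higher and 2969 lower, and 0 against day 2 or day 4. Probe sets below the filter were not tested, and 2 arrays a day limit the precision.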

Other observations

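Genes in none of the lists, taken by the same rule and named after their values were seen from those whose call held with each array left out, follow by their values. Among the rises, RGS4, which shortens G protein signals, had deposited signals of 58.5 and 73.1 on day 1 against 1907 and 1475 on day 3, a log2 change of 4.79 ± 0.43 (limma adjusted p = 0.000294). SLC5A12, a sodium-coupled lactate carrier of kidney and gut, had 13.9 and 13.4 on day 1 against 520.1 and 466 on day 3 (4.40 ± 0.33). MGAM, the brush border maltase and glucoamylase, had 43.2 and 82.8 on day 1 against 684 and 1557 on day 3 (4.22 ± 0.49). USH1C, which links brush border protocadherins, had 72.2 and 99.6 on day 1 against 683 and 907 on day 3 (3.51 ± 0.24). CDO1, which oxidizes cysteine, had 163 and 196 on day 1 against 2727 and 3412 on day 3 (4.39 ± 0.36). SARDH, which demethylates sarcosine, had 31.5 and 33.9 on day 1 against 765 and 572 on day 3 (4.21 ± 0.38). GATM, the first enzyme of creatine synthesis, had 459 and 960.2 on day 1 against 5377 and 6707 on day 3 (3.54 ± 0.28). PON1, a plasma esterase carried on high density lipoprotein, had 219.6 and 244 on day 1 against 2600.5 and 4934 on day 3 (4.25 ± 0.37). SLCO1B3, a hepatic carrier of organic anions, had 15.4 and 5.06 on day 1 against 224 and 265 on day 3 (3.63 ± 0.31). That both days lay apart was part of the rule. The rises given here are a choice and do not follow the order of size. MXRA8 (4.65), RBP (4.63), SPIA5 (4.62) and PNAT10 (4.61) rose more than all of them but RGS4 and are not described. The same holds for RASSF2 (4.57), ATP2B2 (4.54), NUDT5 (4.49) and AADAC (4.45).

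Among the falls outside the lists, SFRP2, a secreted binder of WNT ligands, had 412 and 1227 on day 1 against 25.7 and 22.9 on day 3 (-3.71 ± 0.56, limma adjusted p = 0.00278), and AGRP, known in the brain as an antagonist of melanocortin receptors, had 287 and 699 on day 1 against 8.34 and 11.3 on day 3 (-3.73 ± 0.30). MATN4, a matrilin of the extracellular matrix, had 202 and 271 on day 1 against 2.96 and 2.08 on day 3 (-3.30 ± 0.23). NASP, a histone chaperone, had 917 and 2107 on day 1 against 101 and 60.4 on day 3 (-3.39 ± 0.40). HELLS, a chromatin remodeller, had 1759 and 3212 on day 1 against 168 and 145 on day 3 (-3.37 ± 0.51), and HMGB2 had 1731 and 2983 on day 1 against 256 and 181 on day 3 (-2.85 ± 0.48). NPM3, a nucleoplasmin-type protein of the nucleolus, had 2432 and 3866 on day 1 against 269 and 168 on day 3 (-3.37 ± 0.50). PTMA, the acidic nuclear protein prothymosin alpha, stayed measurable on day 3 with 4584 and 6196 on day 1 against 306 and 445 on day 3 (-3.56 ± 0.60).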
